A study of Homo sapiens with 8 samples.

Results

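The alpha-kinases are a family of 6 human genes, *ALPK1*, *ALPK2*, *ALPK3*, *EEF2K*, *TRPM6* and *TRPM7*, and are described here as they were read by ribosomes in G401 cells. All 6 were found by gene ID among the 20719 genes listed in the files. The family was chosen by family membership, and was singled out because the footprint counts of *ALPK2* differ strongly between the lines compared, so every difference between the lines is given as a description, with no test.

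G401 cells come from a rhabdoid tumor of the kidney and do not express SMARCB1, a core subunit of the mSWI/SNF chromatin remodeling complex. Both lines used here derive from it and carry a Tet-On construct, for SMARCB1 in the SMARCB1 line and for GFP in the GFP line. Cells were exposed for 12 h to doxycycline (Dox) at 0.1 μg/ml or to its solvent control DMSO, which gives the 4 groups SMARCB1 Dox, SMARCB1 DMSO, GFP Dox and GFP DMSO, with 2 libraries each and the plates of a condition pooled. Ribosome-associated RNA was captured with the RiboLace kit, and reads were counted on coding sequences. The sources used here do not say whether either line was grown from a single clone, so the construct that a line carries and any other difference between the lines cannot be told apart.

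Between 5924443 and 14000039 reads were counted on genes per library. The targeted gene, *SMARCB1*, was counted 2553 and 1750 times after its induction, and 0 times in each of the other 6 libraries. The correlation of log2 levels between replicates was 0.95 to 0.98, and multiple alignments took 56.4% of the alignment entries in GFP Dox replicate 1 against 25.6% to 39.7% elsewhere. The rhabdoid cell markers *VIM*, *KRT8* and *KRT18* summed to 4571 to 6781 CPM (counts on a gene relative to all counts, per 1000000, with library totals scaled by TMM) where SMARCB1 was inducible and to 5187 to 5861 where GFP was. Within this sum, *VIM* was higher in the SMARCB1 line without overlap (means of 2729 and 1484 CPM), while the means of *KRT8* (1452 and 2341) and *KRT18* (991.5 and 1612) were lower with overlapping libraries. The 10 markers of blood, endothelial, epithelial and liver cells summed to at most 2.81 CPM in any library, with *PTPRC*, *CD3E*, *HBA1* and *ALB* at 0 throughout.

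Alpha-kinases phosphorylate serine and threonine with a catalytic domain that bears little sequence similarity to that of conventional protein kinases. EEF2K is activated by calmodulin and phosphorylates elongation factor eEF2, which slows peptide elongation. TRPM6 and TRPM7 are magnesium-permeable channels that carry the kinase domain at their C-terminal end. ALPK1 is a cytosolic sensor of bacterial ADP-heptose that phosphorylates TIFA and so activates NF-κB. ALPK3 belongs to striated muscle, where it is found at the M-band of the sarcomere, and ALPK2 has been linked to heart development and Wnt/β-catenin signaling.

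By exact matches within coding exons, reads of 30 bases can be told apart between the members. Of all 30-base windows within the coding exons of the 6 genes, 100% occurred once in the genome (GRCh38) for every member except *TRPM7*, with 99.7%. The longest run of bases shared by the longest annotated coding sequences of any pair of members is 18 bases, near the start of *TRPM6* and *TRPM7*, and other pairs share at most 14. It is shown as the longest exact match between these coding sequences of the channel genes. Matches with mismatches and other transcripts were not searched, so it sets no bound on how far a footprint could be shared. Capitals mark the shared run, in bases 31 to 60 of the *TRPM6* coding sequence and in bases 1 to 30 of that of *TRPM7*, both read from GRCh38 on the minus strand:
TRPM6: caGTCCCAGAAATCCTGGATtaaaggagta
TRPM7: atGTCCCAGAAATCCTGGATagaaagcact
In both genes the run crosses an exon junction after its first base, which lies at chr9:74887824 in *TRPM6* and chr15:50686531 in *TRPM7*. Its other bases lie at chr9:74858732-74858748 and chr15:50663030-50663046. In *TRPM7*, 203 coding bases are also annotated, with strand not considered, to an overlapping locus, ENSG00000288645. Whether footprints there were assigned to a single gene was not checked.

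*ALPK2* was abundant in the SMARCB1 line and nearly absent from the GFP line. The gene (ENSG00000198796) lies on the minus strand of chromosome 18 at 58481247 to 58629091, with 1 annotated coding transcript of 6510 coding bases in 12 intervals. Its footprints numbered 4819 and 2198 in the SMARCB1 Dox libraries, 2817 and 5306 in SMARCB1 DMSO, 23 and 23 in GFP Dox, and 58 and 79 in GFP DMSO. All 4 libraries of the SMARCB1 line thus lay far above all 4 of the GFP line. As CPM, the level was 403.2 and 348.5 in SMARCB1 Dox and 469.9 and 413.4 in SMARCB1 DMSO. In the GFP line it was 3.81 and 3.40 with Dox and 4.77 and 5.49 with DMSO. A count of 0 would allow up to 3 counts, and every GFP library was above this limit, so the gene was low in this line but not undetected.

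Under DMSO, *ALPK2* was higher in the SMARCB1 line by 6.42 on the log2 scale (SE 0.29), which is 85.7-fold. With Dox in both lines the difference was 6.70 (SE 0.31), or 104.1-fold. These are the values for which the gene was singled out. Pooled over the treatments, 15140 counts stood against 183, a ratio of 87.8 with a 95% interval of 75.9 to 102.1 that covers counting error only. The difference was present without induction of SMARCB1, for which the SMARCB1 DMSO libraries had 0 counts. By absolute log2 difference, *ALPK2* ranked 90th of 11097 genes tested under DMSO and 99th with Dox, and 34th and 59th among the genes higher in the SMARCB1 line. The median gene differed by 0.02 and by -0.01. Ribosome-associated RNA alone was analysed here, so a difference in mRNA level cannot be told apart from a difference in translation. In such bulk samples, fewer cells with the transcript cannot be told apart from less of it per cell.

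**Figure D1:**
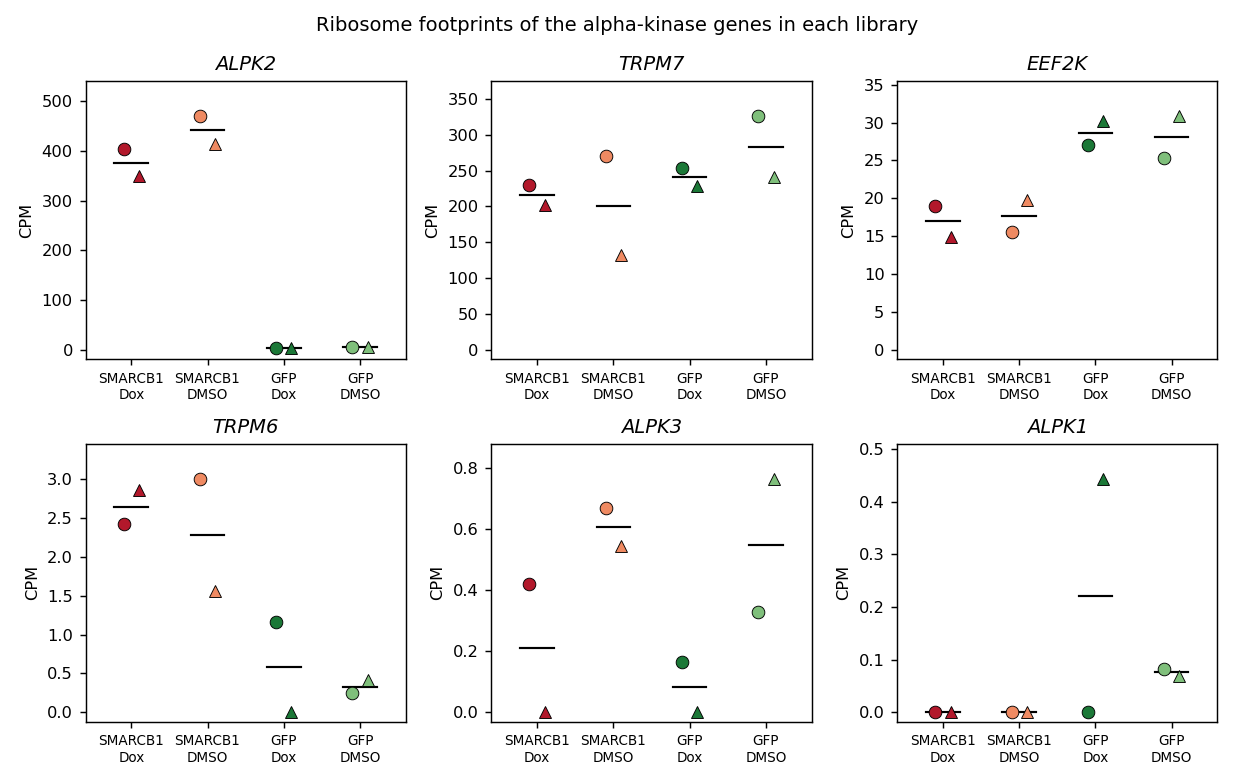
Each panel plots the CPM of a single alpha-kinase gene in the 8 libraries, with circles for replicate 1, triangles for replicate 2, black lines for group means and an own linear axis per gene. *ALPK2* is at 348.5 to 469.9 CPM in the SMARCB1 line but at 3.40 to 5.49 in the GFP line, and *EEF2K* is lower in all 4 libraries of the SMARCB1 line.

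*EEF2K*, the elongation factor kinase, showed a smaller difference of the opposite direction. The gene (ENSG00000103319) lies on the plus strand of chromosome 16 at 22206278 to 22288738, with 2180 coding bases. Its level was 18.99 and 14.90 CPM in SMARCB1 Dox, 15.51 and 19.71 in SMARCB1 DMSO, 26.97 and 30.17 in GFP Dox, and 25.25 and 30.85 in GFP DMSO. The lines did not overlap, with means of 17.3 ± 2.42 CPM (SD, n = 4 libraries over both treatments) in the SMARCB1 line against 28.3 ± 2.65 in the GFP line. The log2 difference was -0.66 (SE 0.28) under DMSO and -0.75 (SE 0.29) with Dox. For scale, all 4 libraries of the SMARCB1 line were below all 4 of the GFP line for 8.95% of all genes tested, and above them for 8.61%.

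*TRPM7*, the widely expressed channel-kinase, was well expressed in both lines and their ranges overlapped. The gene (ENSG00000092439) lies on the minus strand of chromosome 15 at 50552473 to 50686797. It had 230.3 and 202.6 CPM in SMARCB1 Dox, 269.9 and 132.8 in SMARCB1 DMSO, 253.1 and 228.8 in GFP Dox, and 326.3 and 240.8 in GFP DMSO. The lowest value was that of SMARCB1 DMSO replicate 2. The difference between the lines was -0.50 (SE 0.30) on the log2 scale under DMSO, from -1.09 without SMARCB1 DMSO replicate 1 to -0.07 without replicate 2, and -0.15 (SE 0.30) with Dox.

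*TRPM6*, the relative of TRPM7 known from kidney and intestine, was near the detection limit. The gene (ENSG00000119121) lies on the minus strand of chromosome 9 at 74722495 to 74888094. It had 29 and 18 counts in SMARCB1 Dox, 18 and 20 in SMARCB1 DMSO, 7 and 0 in GFP Dox, and 3 and 6 in GFP DMSO. As CPM, the SMARCB1 line spanned 1.56 to 3.002 and the GFP line 0 to 1.16, without overlap. Pooled counts were 85 against 16, a ratio of 5.64 (95% interval 3.28 to 10.3, covering counting error only). The fitted log2 difference was 2.68 (SE 1.01, 95% interval 0.51 to 4.84) under DMSO. With Dox it was 2.205 (SE 1.04, 95% interval -0.02 to 4.43). Both are descriptions and carry no test. *TRPM6* reached 10 counts in all 4 libraries of the SMARCB1 line but in 0 libraries of the GFP line. The gene thus passed the filter through the line in which it was high.

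*ALPK3* and *ALPK1* did not pass the filter on low counts and were not tested. *ALPK3* (ENSG00000136383, chromosome 15 at 84817356 to 84873479, plus strand) had 5 and 0 counts in SMARCB1 Dox, 4 and 7 in SMARCB1 DMSO, 1 and 0 in GFP Dox, and 4 and 11 in GFP DMSO. The lines had 16 counts each, a ratio of 1.06 (95% counting interval 0.50 to 2.27). *ALPK1* (ENSG00000073331, chromosome 4 at 112285509 to 112442621, plus strand) had 0 counts in all 4 libraries of the SMARCB1 line, which allows at most 0.50 CPM in the shallowest of them. Its counts in the GFP line were 0 and 3 with Dox and 1 and 1 with DMSO. At this depth no difference between the lines was detectable for either gene.

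Divided by the length of the annotated coding sequence, the levels order the family differently in each line. In the SMARCB1 line *ALPK2* came first, with 62.8 ± 7.64 CPM per kb (SD, n = 4 libraries over both treatments), followed by *TRPM7* with 36.7 ± 10.1 and *EEF2K* with 7.93 ± 1.11. The ranges of these 3 did not overlap. *TRPM6* followed with 0.40 ± 0.11, above the range of *ALPK3* with 0.08 ± 0.06, which in turn reached down to the 0 of *ALPK1*. In the GFP line the order was *TRPM7* with 46.0 ± 7.70 CPM per kb, *EEF2K* with 13.0 ± 1.22 and *ALPK2* with 0.67 ± 0.14, again without overlap. *TRPM6*, *ALPK3* and *ALPK1* were at 0.07 ± 0.08, 0.06 ± 0.06 and 0.04 ± 0.05, and these last 3 did not differ beyond their spread. Of the 11096 tested genes with a length, 20.9% had a higher level per kb than *ALPK2* in the SMARCB1 line against 95% in the GFP line. The median gene had 16.95 and 16.99 CPM per kb in these lines.

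**Figure D2:**
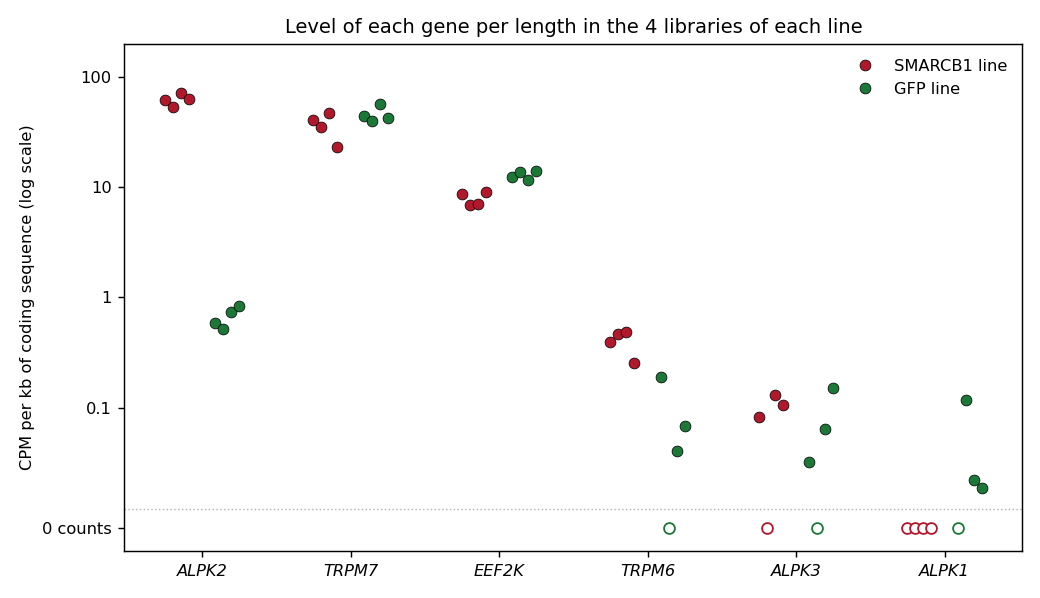
Points give the level of each gene in CPM per kb of coding sequence on a log axis, 4 libraries for each line, and open circles under the dotted line mark libraries with 0 counts. *ALPK2* leads the family in the SMARCB1 line at 53.5 to 72.2 CPM per kb and comes after *TRPM7* and *EEF2K* in the GFP line at 0.52 to 0.84.

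The place of *ALPK2* within the family can be given as its share of the counts on the 6 genes. It took 61.5% and 61.3% of them in SMARCB1 Dox and 61.9% and 72.8% in SMARCB1 DMSO. In GFP Dox it took 1.33% and 1.29%, and in GFP DMSO 1.34% and 1.97%, with exact 95% binomial bounds from 0.82% to 2.45% over these 4 libraries. The highest share was that of SMARCB1 DMSO replicate 2, the library in which *TRPM7* was lowest. Without *ALPK2*, the family summed to 154.6 to 289.1 CPM in the SMARCB1 line but to 259.4 to 352.3 in the GFP line, and these ranges overlapped.

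Whether induction of SMARCB1 changed the footprints of these genes within 12 h was tested with edgeR's quasi-likelihood test over all genes, with calls at a Benjamini-Hochberg adjusted p below 0.05 and a fold change above 2. None of the 4 tested members was called in SMARCB1 Dox against SMARCB1 DMSO, where 2 of all 11097 genes were (0.018%). None was called in GFP Dox against GFP DMSO or for the difference between these effects, and nor was any other gene (0% in both). By DESeq2's Wald test, 34, 0 and 1 of all genes were called in the 3 comparisons, and again no member. At an unadjusted p below 0.05, 4.97%, 2.16% and 3.99% of all genes passed, and 0 of the 4 members.

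No change of *ALPK2* with Dox passed the test in either line. In the SMARCB1 line its fold change was -0.23 on the log2 scale (SE 0.22, 95% interval -0.71 to 0.25, edgeR adjusted p = 1). In the GFP line it was -0.51 (SE 0.29, interval -1.14 to 0.11, edgeR adjusted p = 1). The Dox libraries lay below the DMSO libraries in both lines without overlap, as they did for 18.3% of all genes in the SMARCB1 line against 13.2% in the GFP line. The difference between the effects was 0.28 (SE 0.37, interval -0.51 to 1.07, edgeR adjusted p = 0.98). The interval in the SMARCB1 line lay within a 2-fold change in either direction, and that in the GFP line, with its few counts, reached past it.

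*EEF2K* had a log2 fold change with Dox of -0.06 (SE 0.29) in the SMARCB1 line and of 0.03 (SE 0.28) in the GFP line, both with an edgeR adjusted p of 1. For *TRPM7* the values were 0.11 (SE 0.30) and -0.23 (SE 0.30), with adjusted p-values of 1 by edgeR. The first depended on which SMARCB1 DMSO library was kept, at -0.32 without replicate 2 and 0.70 (SE 0.28) without replicate 1, and was not called in either fit. For *TRPM6*, 0.24 (SE 0.88) and 0.72 (SE 1.18) show how little its counts can resolve. The differences between the effects were -0.08 (SE 0.40) for *EEF2K*, 0.34 (SE 0.43) for *TRPM7* and -0.47 (SE 1.44) for *TRPM6*, with edgeR adjusted p-values of 0.98 to 1. *ALPK3* had fewer counts with Dox in each line, and pooled ratios of 0.47 (95% counting interval 0.13 to 1.46) and 0.14 (0.0033 to 0.90). With all genes kept in the fit its edgeR adjusted p was 1 in both.

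**Figure D3:**
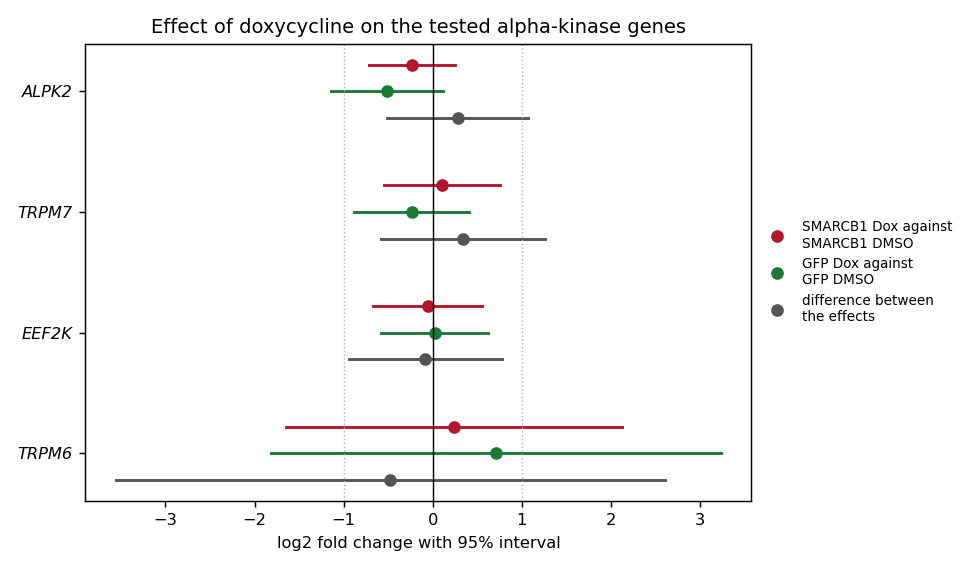
Points give the log2 fold change with Dox and lines its 95% interval for the 4 tested members, in the SMARCB1 line, in the GFP line and for the difference between these effects, with dotted lines at a 2-fold change. Every interval includes 0, and those of *TRPM6* are the widest.

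The genes around *ALPK2* were compared between the lines. With at least some coding sequence within 1 Mb of the gene, 12 others were found, of which 8 were tested. *MALT1*, a paracaspase of NF-κB signaling in lymphocytes, is the nearest of them at 42 kb and was also higher in the SMARCB1 line. It had 390.7 and 368.7 CPM in SMARCB1 Dox, 538.1 and 386.4 in SMARCB1 DMSO, 54.3 and 43.5 in GFP Dox, and 45.7 and 36.0 in GFP DMSO. The lines were far apart, with a log2 difference of 3.50 (SE 0.28) under DMSO. *ZNF532*, a zinc finger protein gene 234 kb away on the same side, had a mean of 41.9 CPM against 26.9, without overlap, and a log2 difference of 0.81 (SE 0.26). *NEDD4L*, a ubiquitin ligase gene 80 kb away on the other side, was low in both lines, with means of 1.50 and 0.79 CPM that come from 92 counts in all. Farther away, *SEC11C* (0.51), *LMAN1* (0.69), *ATP8B1* (0.72), *FECH* (-0.04) and *NARS1* (-0.04) all had log2 differences with overlapping libraries. That of *ATP8B1* has an SE of 1.80 and rests on 35 counts in all. *GRP*, *RAX* and *CCBE1* had 0 counts in all libraries and *CPLX4* had 1.

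**Figure D4:**
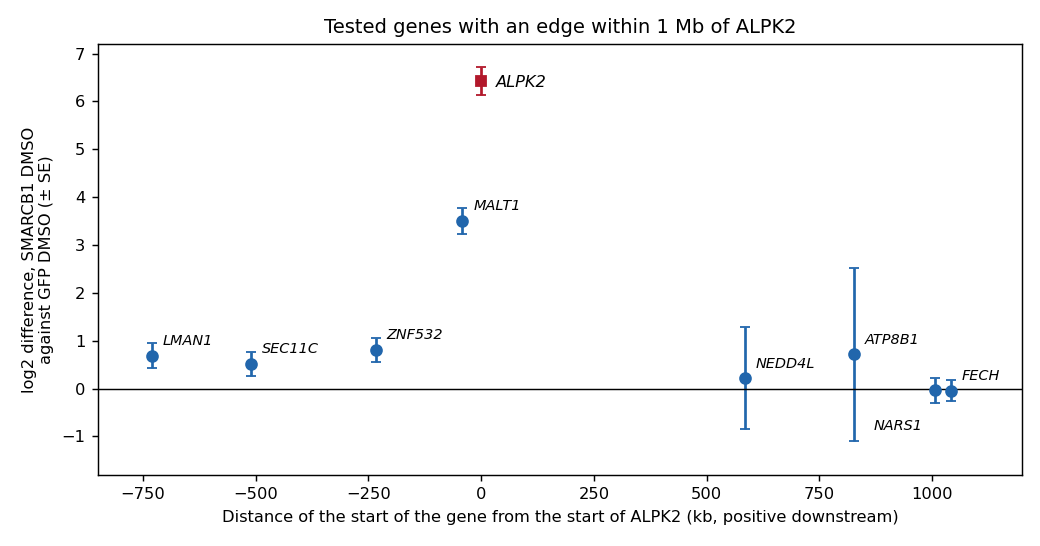
The log2 difference between SMARCB1 DMSO and GFP DMSO (± SE) is plotted against the distance of the start of each gene from the start of *ALPK2* in kb, positive in the direction in which *ALPK2* is read, for the 8 tested genes nearby. *ALPK2* at 6.42 and *MALT1* at 3.50 stand above the other genes, which lie between -0.04 and 0.81.

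The genes whose log2 CPM followed *ALPK2* most closely over the 8 libraries were *PAG1* (Pearson r = 0.998), *IKZF2*, *DIAPH2*, *FRY* and *NT5E*. These r values describe libraries that fall into the separate lines and carry no test. Of 11096 genes, 29 had an r above 0.99 and 186 above 0.95. *PAG1*, an adaptor protein of the plasma membrane, ranged from 187.9 to 277.5 CPM in the SMARCB1 line but from 6.62 to 10.2 in the GFP line. *FRY* ranged from 41.4 to 67.1 CPM and *IKZF2*, an Ikaros family transcription factor, from 10.8 to 14.7 in the SMARCB1 line, and both had 0 counts in all GFP libraries. *NT5E*, the ecto-5'-nucleotidase CD73, had 45.8 to 55.0 against 0.17 to 0.66 CPM, and *DIAPH2*, a formin, 15.8 to 20.2 against 0 to 0.08. Within the family, *EEF2K* had an r of -0.92 with *ALPK2* and *TRPM7* of -0.50.

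A set of 96 genes from pathways and families related to the alpha-kinases was examined beside them, in 7 lists, and 77 of these genes were tested. With all libraries kept, no list gene was called with Dox in either line or for the difference between the effects. *MAGT1*, of the magnesium transport list, and *AXIN2* were called only without GFP Dox replicate 2, which left 1 library in that group. At an unadjusted p below 0.05 by edgeR, 5 of the 77 (6.49%) passed in the SMARCB1 line, 1 (1.30%) in the GFP line and 1 (1.30%) for the difference, against 4.97%, 2.16% and 3.99% of all genes. These were *NIPAL3*, *PLCG2*, *TRIM55*, *TRIM63* and *TCF7L2* in the SMARCB1 line, *MMGT1* in the GFP line and *TRIM55* for the difference, with edgeR adjusted p-values of 0.29 to 1. Of these, *TRIM63* passed the filter only through the SMARCB1 Dox libraries, in which it was high. Its p-value therefore gives no support, and it is part of the 6.49%. Between the lines, 14 (18.2%) were higher in all 4 libraries of the SMARCB1 line and 1 (1.30%) was lower, where 8.61% of all genes tested were higher and 8.95% lower. These 14 and the values between lines below are descriptions only.

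Of the 16 tested genes of the ALPK1 pathway, 6 were among these 14, beside the 8.61% of all genes. *TIFA*, the adaptor that ALPK1 phosphorylates, was at 9.002 ± 0.57 CPM in the SMARCB1 line against 3.88 ± 1.72 in the GFP line (SD, n = 4 libraries over both treatments), a log2 difference of 1.31 (SE 0.47) under DMSO, while ALPK1 itself was at or near 0 in both. *TNFAIP3*, the ubiquitin-editing enzyme A20 that restrains NF-κB, had 88.9 and 75.5 CPM in SMARCB1 Dox, 96.9 and 74.2 in SMARCB1 DMSO, 3.47 and 5.03 in GFP Dox, and 4.61 and 8.27 in GFP DMSO. The lines were far apart here too, by 3.72 (SE 0.33) on the log2 scale under DMSO. *TAB3*, an adaptor of the TAK1 kinase, differed by 1.26 (SE 0.33), and *TRAF6*, *TAB2* and *IKBKB* were the others. The median of the 16 tested genes was 0.20, so the large differences belonged to few of them. With Dox in the SMARCB1 line the gene of this list with the largest log2 fold change was *TAB3*, at 0.64 (SE 0.33, edgeR adjusted p = 1).

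Around EEF2K, 1 of the 19 tested genes was higher and 1 was lower in the SMARCB1 line without overlap. *EEF2*, the elongation factor it phosphorylates, was at 3422 ± 197.8 CPM in the SMARCB1 line against 3301 ± 357.4 in the GFP line (SD, n = 4 libraries), a log2 difference of 0.13 (SE 0.26) under DMSO. The calmodulin genes *CALM2* and *CALM3* each differed by 0.39 on the same scale, and *CALM3* was the list's only gene higher without overlap. *RPS6KA1*, which encodes the kinase RSK1 that phosphorylates EEF2K, was the only gene of the 77 lower without overlap. It was at 71.5 to 102.1 CPM in the SMARCB1 line against 171.7 to 221.9 in the GFP line, with a log2 difference of -1.21 (SE 0.26). The median over these genes was -0.05 between the lines and -0.02 with Dox in the SMARCB1 line, where *DNAJC24*, of diphthamide synthesis, had the largest log2 fold change at -0.54 (SE 0.36, edgeR adjusted p = 1).

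Of the other TRPM channels, *TRPM4* alone among 6 passed the filter, with means of 12.2 CPM in the SMARCB1 line against 11.1 in the GFP line and a log2 fold change of -0.56 (SE 0.36) with Dox in the SMARCB1 line. Of the magnesium transport genes, 16 of 20 were tested and 2 were higher in the SMARCB1 line without overlap, *SLC41A3* and *TUSC3*. *NIPAL3*, of the NIPA family of magnesium transporters, had 47 and 34 counts in SMARCB1 Dox and 8 and 16 in SMARCB1 DMSO. Its log2 fold change of 1.84 (SE 0.67), the largest of this list in absolute value, had by edgeR an unadjusted p of 0.0163 and an adjusted p of 0.77. All 5 substrates of the TRPM7 kinase were tested. *PLCG2*, a phospholipase, was at 40.2 and 49.6 CPM in SMARCB1 Dox and 25.2 and 29.6 in SMARCB1 DMSO, or 0.71 as a log2 fold change (SE 0.25, edgeR adjusted p = 0.75), and *MYH10*, a nonmuscle myosin, was the list's gene higher in the SMARCB1 line without overlap.

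Of the 12 muscle partners of ALPK3, 7 were tested and the other 5 had few counts. Of the 12 striated muscle markers, 3 were tested, with *MYOD1*, *MYOG*, *ACTC1*, *NKX2-5* and *TBX5* at 0 in all libraries. Their sum, 54.0 to 123.5 CPM in the SMARCB1 line against 128.8 to 180.3 in the GFP line, came mainly from *TNNT2*, with means of 76.5 and 132.5 CPM. *OBSL1*, which encodes a cytoskeletal adaptor, was higher in the SMARCB1 line by 0.83 (SE 0.24) on the log2 scale under DMSO, without overlap. *TRIM63*, the muscle ubiquitin ligase MuRF1, had 28 and 27 counts in SMARCB1 Dox, 0 and 1 in SMARCB1 DMSO, and 1, 0, 0 and 1 in the GFP libraries. The SMARCB1 Dox libraries were thus the only ones with more than 1 count, at a pooled ratio of 56.7 to SMARCB1 DMSO (95% counting interval 9.76 to 2281), and the edgeR adjusted p was 0.29 at an unadjusted p of 0.00067. It passed the filter through these libraries alone.

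For the Wnt/β-catenin genes, linked to ALPK2 in heart development, 13 of 15 were tested and 2 were higher in the SMARCB1 line without overlap, *AXIN2* and *TCF7L2*. *DVL1*, a Dishevelled protein gene, had the largest difference under DMSO, 0.72 (SE 0.26), and the median was 0.08. *AXIN2*, a target and inhibitor of the pathway, was at 19.8 and 17.3 CPM in SMARCB1 Dox, 10.2 and 8.80 in SMARCB1 DMSO, 1.65 and 6.95 in GFP Dox, and 4.61 and 7.09 in GFP DMSO. Its log2 fold change with Dox in the SMARCB1 line, the largest of this list in absolute value, was 0.97 (SE 0.48, edgeR adjusted p = 1).

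**Figure D5:**
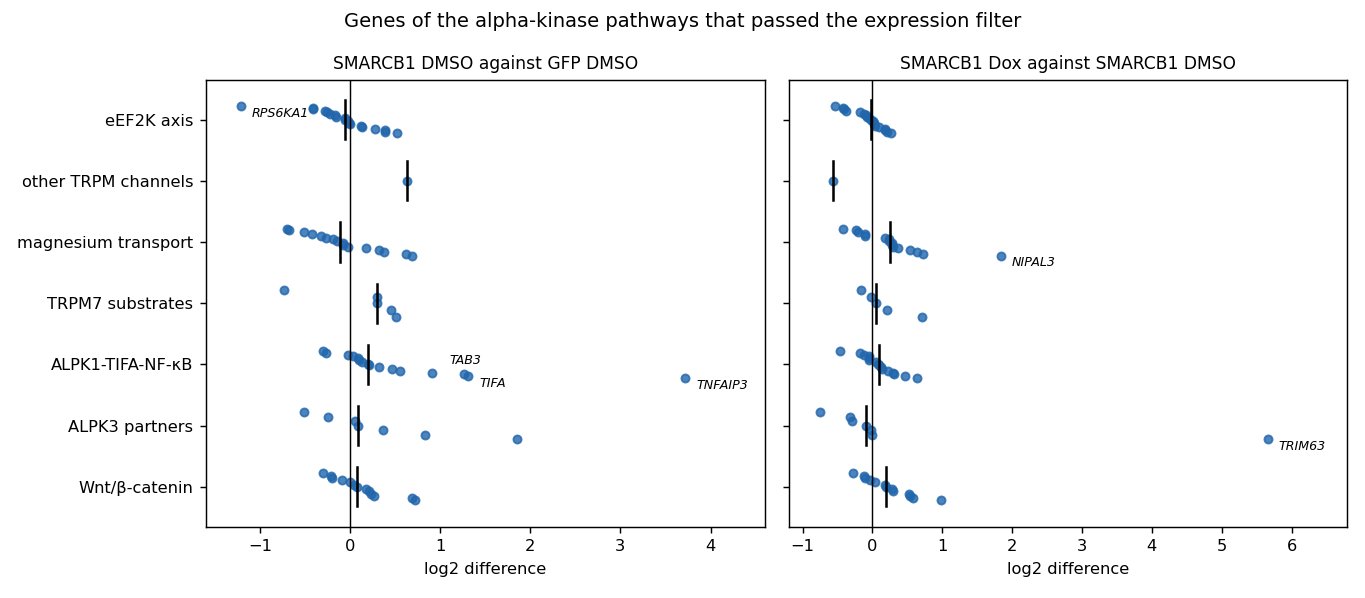
Each point is a tested gene of the 7 pathway lists, placed by its log2 difference between the lines under DMSO (left) or with Dox in the SMARCB1 line (right), with black bars for list medians. *TNFAIP3* at 3.72 stands apart between the lines and *TRIM63* at 5.66 with Dox, a fitted value that rests on 1 count in the SMARCB1 DMSO libraries.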

How the data were processed

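For each of the 8 libraries, 1 file of unnormalized footprint counts by gene was deposited. The authors had aligned reads to hg38 with STAR and counted them with HTSeq (intersection-strict) over the coding sequences in GENCODE 42. Tool versions and the strand option are not given in the sources used here. The 5 HTSeq summary rows per file were left out. They show that 36.6% to 45.9% of uniquely aligned reads lay on no coding sequence.

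Symbols, positions and coding lengths came from GENCODE 44 (GRCh38), with 20408 of 20719 IDs matched. Counts were filtered with filterByExpr, scaled with TMM and fitted with edgeR 4.0.16 (glmQLFit, glmQLFTest, R 4.3.3) over all 8 libraries with 1 term per group. The p-values were adjusted over the 11097 genes tested. The SE was taken from the F statistic. DESeq2 1.42.0, other scalings and filters, the groups compared alone, a replicate block, robust fitting and leaving out each library were the alternatives. Intervals of ratios and shares are exact binomial and cover counting error only. Correlations used log2 CPM with a prior count of 2. The edgeR test was checked on simulated data for SMARCB1 Dox against SMARCB1 DMSO alone, with changes put only into genes that were not low in counts. DESeq2 and the other comparisons were not checked in this way.

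Replicates differed by more than sampling noise (chi-square per degree of freedom 15.2 to 48.0), and were made in duplicate experiments whose independence is not described further, so p-values measure the spread between these libraries. The members and the lists were chosen with earlier results of these data known. Named were all members, the gene of each list with the largest absolute log2 difference between the lines under DMSO and the one with the largest with Dox in the SMARCB1 line, *EEF2*, *TIFA*, calmodulin genes, the 5 genes most like *ALPK2* and genes with coding sequence within 1 Mb of it. Others were named after their values were seen, and some genes under this rule are not reported here.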

Additional observations from a re-analysis of the deposited data

How the results depend on the processing

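No member was called with Dox under any alternative, including every fit without a library. For *ALPK2*, the adjusted p was 0.83 to 1 in the SMARCB1 line, 0.98 to 1 in the GFP line and 0.86 to 1 for the difference over the alternatives other than leaving out a library. Its difference between the lines stayed within 6.32 to 6.53 under DMSO and 6.59 to 6.83 with Dox over all alternatives. Without single libraries its change with Dox ran from -0.34 to -0.13, from -0.61 to -0.41 and from 0.17 to 0.39. Calls of related genes appeared only without GFP Dox replicate 2, and the share of all genes called in that fit is not given here. GFP Dox then rested on replicate 1 alone, the library with 56.4% multiple alignments. In that fit the log2 fold change of *MAGT1* was 1.38 in the GFP line and -1.801 for the difference. For *AXIN2* the difference was 2.80, and the cause was not tested.

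*EEF2K* changed sign with library size as the only scaling, to 0.058 in the SMARCB1 line, -0.054 in the GFP line and 0.11 for the difference, and to -0.0015 in the GFP line without a filter. That scaling moved the median of all genes for the difference from -0.03 to 0.16. Without single libraries *EEF2K* ran from -0.25 to 0.14, from -0.11 to 0.18 and from -0.27 to 0.11, *TRPM6* from -0.19 to 0.75, from -4.81 to 1.74 and from -1.50 to 5.06, and *TRPM7* between -0.32 and 0.70 in the SMARCB1 line and between -0.080 and 0.94 for the difference. The difference of *TRPM6* between the lines with Dox was 7.73 without GFP Dox replicate 1 and 1.17 without replicate 2. Where a group was left with 1 library, it was assumed to vary like the others. A minimum of 10 counts per library removed *TRPM6*, and the difference between the effects could not be fitted with only the groups compared.

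Libraries with the same replicate number deviated together only weakly, with correlations of 0.05 to 0.28 and 5 of 6 above 0.1. The labels do not say that a number marks a shared batch, and the main fit did not treat these libraries as pairs. Whether they share a replicate effect was not tested. In the SMARCB1 line, the block lowered the SE of the change with Dox from 0.22 to 0.195 for *ALPK2* and from 0.30 to 0.24 for *TRPM7*. For *EEF2K* the SE went from 0.29 to 0.26, and for *TRPM6* from 0.88 to 0.87. With a replicate block, 9, 3 and 6 of the 77 list genes had an unadjusted p below 0.05 by edgeR, against 5, 1 and 1 without it. The share of all genes at this limit under the block is not given here. With the replicate block the change of *ALPK2* was -0.23 in the SMARCB1 line, -0.52 in the GFP line and 0.28 for the difference, 0 members were called, and 13 genes in all were called in the SMARCB1 line. Over all genes, the count called there was 34 by DESeq2's Wald test, 46 without a filter, 5 with only the groups compared and 1 under that minimum of 10 counts. Without a filter, 14 genes were also called in the GFP line and 15 for the difference, with 0 members among them. Depth limits *ALPK1*, *ALPK3* and *TRPM6*, which had at most 29 counts in any library.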
